A study of Mus musculus with 78 samples.

Results

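The gained H3K27ac regions were stretches of the mouse genome that entered the strongest acetylated sites of mouse embryonic stem cells (mESCs) after TRIM28 was degraded for 24 h. H3K27ac is acetylation of lysine 27 of histone H3, a mark of active promoters and enhancers. The 10000 peaks of highest fold over background in each of the 3 dTAG-13-treated H3K27ac libraries were merged, which gave 17093 regions. Of these, 7353 were hit by at least 2 of the 3 libraries, and 381 of the 7353 overlapped none of the 20000 highest peaks of any of the 3 DMSO libraries. These 381 are the gained regions, out of 19012 merged regions over all 6 libraries. They were numbered R001 to R381 in genome order. The 2397 merged regions hit by all 6 libraries are called constant here, and 198 regions found with the treatments exchanged in the rule are called lost. The gained and lost regions were thus chosen by their H3K27ac folds with dTAG-13 and DMSO, so their H3K27ac levels are described without a test.

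The study asked what happens to transcription and to silenced repeats when TRIM28 is removed from mESCs, and its series holds 78 samples, of which 56 were used here. All libraries used came from the V6.5 line carrying TRIM28-FKBP alleles, in which the small molecule dTAG-13 brings about the breakdown of TRIM28. The labels do not state whether replicates were separate cultures, so p-values measure only the spread between these libraries. For chromatin, cells received 500 nM dTAG-13 or DMSO for 24 h, with 3 libraries per treatment for H3K27ac and for H3K9me3, and 2 per treatment for MED23 and for RNA polymerase II (RNAPII). For RNA, 12 TT-SLAM-seq libraries of newly made transcripts covered DMSO and 2, 6 and 24 h of dTAG-13, and 15 poly(A) RNA-seq libraries added 96 h. A further line, named shREPEATS in the labels, carries doxycycline-inducible short hairpin RNAs against 4 ERV families, IAP, MMERVK10C, MMERVK9C and MMETn. It was sampled as 9 total RNA libraries, 3 each with DMSO, with 500 nM dTAG-13, and with dTAG-13 plus doxycycline (Dox, 2 µg per mL). Its treatment notes mention doxycycline pretreatment for all 3 groups, whereas the treatment labels give Dox only for the last of these.

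TRIM28, also known as KAP1, is brought to DNA by KRAB zinc finger proteins and recruits the methyltransferase SETDB1, which deposits H3K9me3, a mark of silent chromatin. In stem cells, its best known targets are endogenous retroviruses (ERVs), remnants of past retroviral insertions whose long terminal repeats (LTRs) hold binding sites for transcription factors. When silencing fails, such repeats can act as enhancers or promoters. MED23 is a subunit of Mediator, the complex that links transcription factors at enhancers to RNAPII. MMERVK and MMETn are mouse ERV families with long terminal repeats, IAPs are another such family, and L1 elements are retrotransposons that lack these repeats.

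Most gained regions resembled copies of a few ERV families, and the letters at their acetylation summits show how closely. The most strongly acetylated MMETn-like region is given with the gained region most like it, as 300 bases of GRCm38 around its H3K27ac summit and the matching stretch. Capitals mark bases without an identical partner in the other sequence. R173 lies at chr16:31388720-31389019, plus strand, and its partner R189 at chr17:22589973-22590272, minus strand. The run of capitals at the end of R173 pairs with extra bases inside R189.
R173: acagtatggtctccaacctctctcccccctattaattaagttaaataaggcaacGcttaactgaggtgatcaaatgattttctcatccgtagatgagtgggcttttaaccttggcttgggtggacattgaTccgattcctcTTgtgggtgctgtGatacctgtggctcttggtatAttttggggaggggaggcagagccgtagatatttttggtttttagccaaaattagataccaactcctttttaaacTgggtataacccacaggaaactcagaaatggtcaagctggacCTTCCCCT
R189: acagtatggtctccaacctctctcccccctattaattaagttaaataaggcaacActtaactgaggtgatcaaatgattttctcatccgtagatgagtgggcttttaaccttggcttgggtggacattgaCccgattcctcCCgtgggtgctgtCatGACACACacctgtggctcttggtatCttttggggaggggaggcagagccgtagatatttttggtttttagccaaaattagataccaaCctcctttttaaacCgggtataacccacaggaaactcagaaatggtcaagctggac
Of the 300 bases of R173, 285 (95%) were identical in R189, although the regions lie on different chromosomes.

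The highest H3K27ac of all gained regions belonged to an MMERVK-like one, R278 at chr5:31316106-31316405, plus strand. Its most alike gained region was R096 at chr13:4215924-4216222, minus strand. Capitals again mark bases without an identical partner.
R278: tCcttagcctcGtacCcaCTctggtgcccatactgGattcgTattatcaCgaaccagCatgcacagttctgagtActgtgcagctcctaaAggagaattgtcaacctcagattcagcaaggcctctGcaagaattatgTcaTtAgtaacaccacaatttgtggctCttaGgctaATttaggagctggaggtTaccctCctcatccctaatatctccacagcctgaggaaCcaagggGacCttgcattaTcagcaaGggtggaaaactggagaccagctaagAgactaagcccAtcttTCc
R096: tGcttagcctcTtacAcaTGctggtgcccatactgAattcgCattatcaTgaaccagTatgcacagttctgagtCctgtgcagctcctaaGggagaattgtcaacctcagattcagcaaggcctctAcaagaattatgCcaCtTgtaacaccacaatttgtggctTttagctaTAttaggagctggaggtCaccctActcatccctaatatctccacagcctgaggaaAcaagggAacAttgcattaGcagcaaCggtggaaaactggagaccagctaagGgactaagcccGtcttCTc
Here 270 of 300 bases (90.0%) were identical, over 299 bases of the partner. R278 was closest to an element named MMERVK9E and R096 to one named MMERVK9C.

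A last set of windows shows a short motif searched for at the summits, the CCAAT box, read as CCAAT or its reverse complement ATTGG. The strongest MMETn-like and the strongest MMERVK-like region with this motif were taken after the motif shares were known, and the strongest region without likeness to any listed element was taken by its acetylation alone. Capitals mark motif matches. R033 lies at chr10:23857481-23857780, R252 at chr4:8462333-8462632 and R270 at chr4:145797768-145798067, all on the plus strand.
R033: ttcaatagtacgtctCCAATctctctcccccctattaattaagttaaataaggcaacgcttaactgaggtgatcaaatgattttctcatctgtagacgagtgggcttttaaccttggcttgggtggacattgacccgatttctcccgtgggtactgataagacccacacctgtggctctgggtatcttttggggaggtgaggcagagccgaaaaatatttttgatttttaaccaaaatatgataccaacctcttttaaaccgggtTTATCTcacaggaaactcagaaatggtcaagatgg
R252: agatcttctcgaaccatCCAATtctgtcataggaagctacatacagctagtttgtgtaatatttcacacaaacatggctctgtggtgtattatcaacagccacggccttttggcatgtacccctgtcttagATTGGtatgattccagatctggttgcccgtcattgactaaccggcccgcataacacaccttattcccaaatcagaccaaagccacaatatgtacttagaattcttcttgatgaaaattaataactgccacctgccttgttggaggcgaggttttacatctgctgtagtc
R270: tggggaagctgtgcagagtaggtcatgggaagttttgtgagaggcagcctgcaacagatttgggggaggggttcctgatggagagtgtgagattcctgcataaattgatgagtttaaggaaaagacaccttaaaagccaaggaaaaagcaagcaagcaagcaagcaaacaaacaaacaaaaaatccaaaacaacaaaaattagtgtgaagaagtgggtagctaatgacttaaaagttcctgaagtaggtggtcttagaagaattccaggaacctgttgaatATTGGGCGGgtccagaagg
R033 holds a CCAAT box at base 16 and a GATA motif, AGATAA, on the minus strand at base 266. R252 holds CCAAT boxes at base 18 and, on the minus strand, at base 132. R270 holds a minus-strand CCAAT box at base 282 that overlaps a GC box, GGGCGG, at base 285.

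Acetylation of the gained regions was low but often detectable before treatment. A DMSO peak of any rank was present in at least 1 library for 293 of the 381 regions (76.9%), in all 3 libraries for 139, and in none for 88 (23.1%). With regions lacking a peak set to 0, the median fold over background was 0, 2.74 and 2.69 in the 3 DMSO libraries and 5.44, 6.99 and 6.79 in the 3 dTAG-13 libraries. The highest values were 3.96, 4.38 and 4.37 with DMSO and 13.1, 17.2 and 17.4 with dTAG-13. All 3 dTAG-13 libraries hit 160 regions (42.0%), replicates 1 and 3 alone hit 146, replicates 2 and 3 hit 45, and replicates 1 and 2 hit 30.

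The edge of the set was not sharp. The peak ranked 10000 had a fold of 4.71, 6.65 and 3.86 in the dTAG-13 libraries, and the peak ranked 20000 had 4.01, 4.38 and 4.42 in the DMSO libraries. Among gained regions the best DMSO rank closest to the limit was 20061, and among the 6972 excluded regions it was 19998. In all, 60 gained regions had a best DMSO rank above 20000 and up to 25000, and 165 excluded regions one above 15000 and up to 20000. The deposited H3K27ac lists held 88050, 117475 and 96407 peaks with DMSO and 30259, 117348 and 45662 with dTAG-13. The 10000 highest peaks covered 18.0, 18.4 and 16.3 Mb with DMSO and 8.14, 18.1 and 10.5 Mb with dTAG-13. Replicate 1 of dTAG-13 thus had the shortest list, and the part of this in membership was not tested. Replicate 3 of dTAG-13 stood apart in that it had no H3K27ac peak at the starts of the stem cell genes Pou5f1 and Sox2, where the other treated libraries had one. The number of gained regions was 192 without that library and 206 without dTAG-13 replicate 1.

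The 10 regions of highest H3K27ac, by the median over the dTAG-13 libraries, comprised 7 MMERVK-like and 3 MMETn-like regions. R278, at chr5:31313620-31317782 in an intron of Gckr, the gene for the glucokinase regulator, had H3K27ac folds of 2.45, 2.6 and 0 with DMSO and of 10.2, 14.3 and 14.1 with dTAG-13. Its MED23 folds were 5.91 and 4.73 with DMSO and 23.3 and 33.4 with dTAG-13. Its H3K9me3 folds were 4.13, 4.38 and 4.28 with DMSO and 0, 2.78 and 2.67 with dTAG-13. In each mark the treated libraries of R278 lay apart from the DMSO libraries, upwards for H3K27ac and MED23 and downwards for H3K9me3. R144, an intergenic region on chromosome 14 at 69153744 to 69156879, had no H3K27ac peak in any DMSO library and folds of 5.69, 13.1 and 14.6 after dTAG-13. MED23 at R144 had folds of 6.73 and 8.10 before and of 31.4 and 33.7 after treatment. R144 is thus an example of a region where MED23 peaks were present in DMSO cells without an H3K27ac peak.

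The highest MED23 of the 10 was at R046, chr10:127816130-127819947, outside its nearest gene, the pseudogene Rdh18-ps, and 4337 bases from the start of that gene. MED23 there had folds of 4.37 and 3.77 with DMSO and of 36.4 and 44.7 with dTAG-13. Its H3K27ac folds were 2.96, 2.6 and 3.36 with DMSO and 12.8, 11.6 and 17.4 with dTAG-13. R356, in an intron of Mmp12, which encodes a macrophage elastase, had H3K27ac folds of 3.92, 4.1 and 3.27 that became 10.3, 13.6 and 11.9. All 10 regions had a MED23 peak among the 10000 highest in both dTAG-13 libraries and in neither DMSO library, and an H3K9me3 peak among the 10000 highest in 1 to 3 DMSO libraries and in no dTAG-13 library. R033, near Vnn3, a gene of the vanin family of pantetheinases, and R126 had the lowest H3K27ac of the 10, with medians of 11.8 and 11.6 after treatment.

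**Figure D1:**
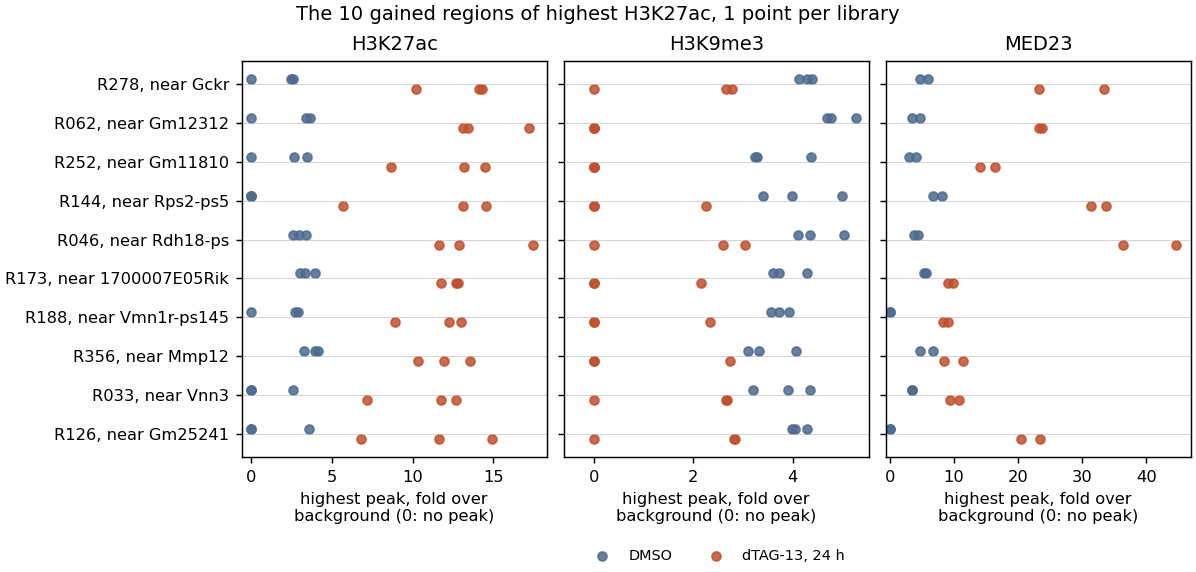
Fold over background of the highest H3K27ac, H3K9me3 and MED23 peak in the 10 gained regions of highest H3K27ac (x axes, 0 where a library had no peak), with 1 point per library for DMSO (blue) and 24 h of dTAG-13 (orange). The H3K27ac and MED23 points of the treated libraries lie to the right of the DMSO points in every region, and the H3K9me3 points to the left.

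The other marks had no part in choosing the regions. For each mark a region counted as covered when it overlapped one of the 10000 highest peaks of a library, or of the 7689 highest for RNAPII, the number in the smallest library. H3K9me3 covered many gained regions in DMSO cells and few after degradation. Of the 381 gained regions, 178, 214 and 192 were covered in the 3 DMSO libraries, against 23, 44 and 25 in the 3 dTAG-13 libraries. All 3 treated libraries thus lay below all 3 DMSO libraries. The mean share was 51.1% ± 4.76 with DMSO and 8.05% ± 3.04 with dTAG-13 (SD, n = 3 each), a difference of -43.0 percentage points (two-sided exact permutation p = 0.1, the smallest that 3 against 3 allows, and 0.3 adjusted over the 6 mark tests). In constant regions the share was 2.25%, 2.92% and 2.38% with DMSO and 1.13%, 1.21% and 0.626% with dTAG-13. Gained minus constant regions gave 48.6 points with DMSO and 7.06 with dTAG-13, a difference of -41.5 (exact p = 0.1, the smallest possible, and 0.3 adjusted). Peaks of any rank gave the same order, with H3K9me3 in 336, 346 and 331 gained regions before and in 27, 161 and 177 after treatment. The deposited H3K9me3 lists held 118318, 126470 and 104579 peaks with DMSO and 11474, 105690 and 147611 with dTAG-13. Without any 1 library the difference stayed between -45.2 and -40.5 points. The 10000 highest H3K9me3 peaks covered 22.9, 36.6 and 28.6 Mb with DMSO and only 4.89, 12.6 and 16.1 Mb with dTAG-13. Wider peaks overlap more regions, and the part of this in the difference was not tested. Counting peak midpoints within 1 kb instead gave a difference of -29.0 points.

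H3K9me3 was not uniform over the gained regions. In at least 2 DMSO libraries 195 regions (51.2%) were covered, and 138 of the 381 (36.2%) were so and were covered in no dTAG-13 library. In 24 regions (6.30%) H3K9me3 was still among the highest peaks in at least 2 treated libraries. In 134 regions (35.2%) no DMSO library placed H3K9me3 among its highest peaks.

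MED23 among the highest peaks had the opposite order. A MED23 peak of any rank lay in 237 and 245 of the 381 gained regions with DMSO, at median folds of 5.72 and 5.30, and in 313 and 303 with dTAG-13, at median folds of 9.91 and 10.1. The last of the 10000 highest peaks had a fold of 10.3 and 9.95 in the DMSO libraries and of 4.37 and 4.44 in the dTAG-13 libraries, since the treated lists were shorter, so a region of intermediate fold counted as covered only after treatment. By this rank, 7.87% and 11.0% of gained regions were covered in DMSO cells, against 79.5% and 77.7% after dTAG-13, with no overlap between the groups. The means were 9.45% ± 2.23 and 78.6% ± 1.30 (SD, n = 2 each), 69.2 points apart, for which 2 against 2 libraries allow no exact permutation p below 0.333. In constant regions the coverage was 76.0% and 75.4% with DMSO and 59.6% and 57.9% with dTAG-13, so that gained minus constant regions went from -66.2 to 19.8 points, a difference of 86.1 (exact p = 0.333, the smallest possible). Because the number of peaks was held equal, a gain in one set of regions goes with a loss elsewhere. With all deposited peaks, of which there were 63045 and 58925 with DMSO and 15335 and 14551 with dTAG-13, the difference in gained regions was 17.6 points. Both dTAG-13 libraries placed MED23 among their highest peaks in 293 gained regions (76.9%), and for 249 of the 381 (65.4%) neither DMSO library did. In 107 regions (28.1%) both patterns met, H3K9me3 in at least 2 DMSO libraries and no treated library, and MED23 among the highest peaks of both treated libraries and of no DMSO library. Among regions covered by H3K9me3 in at least 2 DMSO libraries 168 of 195 (86.2%) had MED23 in both treated libraries, against 85 of 134 (63.4%) among those covered in none.

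RNAPII peaks were rare. Of the gained regions, 0.787% and 0.525% overlapped an RNAPII peak with DMSO and 3.15% and 1.84% with dTAG-13, a difference of 1.84 points (exact p = 0.333, the smallest possible). The fold of the last RNAPII peak used was 6.55 and 6.32 with DMSO and 3.29 and 1.19 with dTAG-13. In constant regions RNAPII covered 72.0% and 71.5% before and 69.2% and 68.6% after treatment. The gained minus constant difference changed by 4.74 points and reversed to -0.338 when peak midpoints within 1 kb were counted. Only 7 gained regions had an RNAPII peak in both treated libraries, chosen here after their values were seen, among them R062 near the pseudogene Gm12312 with folds of 8.70 and 8.29 and R278 with 4.95 and 4.78, where neither had one with DMSO.

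**Figure D2:**
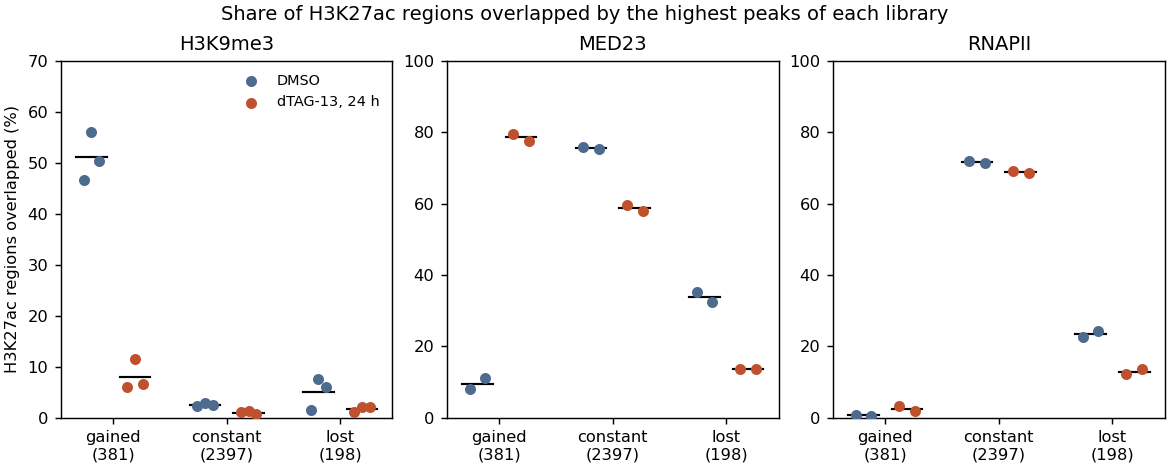
Share of gained, constant and lost H3K27ac regions (y axes, percent) that overlapped the highest H3K9me3, MED23 or RNAPII peaks of each library, with 1 point per library and a line at the group mean. In gained regions H3K9me3 goes from 46.7% to 56.2% in DMSO libraries down to 6.04% to 11.5%, and MED23 from 7.87% and 11.0% up to 79.5% and 77.7%, with a lower fold at the last MED23 peak used after treatment. The H3K9me3 peaks used covered less of the genome after treatment.

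Gained regions lay away from gene starts. Their summits were intergenic in 276 cases (72.4%), intronic in 92 (24.1%) and exonic in 13 (3.41%), against 28.5%, 39.3% and 32.2% for constant regions. A gene start lay within 1 kb of 18 gained regions (4.72%), against 69.2% of constant regions, and within 50 kb of 316 (82.9%). Their median length was 1408 bases and their median distance to the nearest gene start 14755 bases. None of the 381 overlapped a super-enhancer (SE) of the study's list, a share whose 95% Wilson interval reaches 0.998%, whereas 84 constant regions did (3.50%). The rule removed every region with one of the highest DMSO H3K27ac peaks and constant regions had to hold one, so this contrast is a description of the choice. The widest presence was on chromosome 13, with 42 regions, followed by chromosomes 9, 10 and 3 with 30, 27 and 26. With gaps of at most 100 kb, 143 regions fell into clusters of at least 2. The largest cluster held 5 regions on chromosome 10 near the pseudogene Gm21321. A cluster of 4 on chromosome 9 spanned matrix metalloproteinase genes from Mmp12 to Mmp10, and a cluster of 3 on chromosome 13 lay among Akr1c18, Akr1c13 and Akr1c19, members of the aldo-keto reductase family.

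The sequence of 340 gained regions (89.2%) aligned over at least 100 bases to an element in the study's lists of full-length MMERVK, MMETn, IAP and L1 copies and of IAP long terminal repeats. The best match was MMERVK for 174, MMETn for 140, L1 for 18 and IAP for 8, 2 of the last to a solo long terminal repeat, and 41 regions matched none. Within MMERVK, 90 were closest to MMERVK9C, 75 to MMERVK9E, 6 to MMERVK10C and 3 to MMERVK10D3. The median match of gained regions spanned 962.5 bases at 93.4% identity, whereas 60.5% of constant regions matched with a median of 180 bases at 88.5%. A stricter limit of 200 bases and 90% identity, set after the data were seen, kept 262 gained regions (68.8%), of which 134 (35.2% of all) were MMETn and 112 (29.4%) MMERVK, against 292 constant regions (12.2%) and 77 lost regions (38.9%). Of those 77 lost regions 76 resembled L1. The lists of IAP and L1 copies were held only in part, so the numbers for these 2 families are lower bounds and the number without a match is an upper bound.

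Repeats masked in the genome sequence made up a median of 71.7% of a gained region, 19.4% of a constant and 29.7% of a lost region. Median GC content was 42.4%, 48.7% and 57.5% in the same order. Likeness also ran between gained regions. At 200 bases and 90% identity 252 of them had at least 1 alike partner among the 381, in 16 groups. The largest group joined 189 regions, 134 of them MMETn-like, 53 MMERVK-like and 2 L1-like, and the next groups held 15, 8 and 5 MMERVK-like regions. Short reads from such alike copies can be placed at the wrong copy, and how many were was not tested.

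Families differed in the marks they carried. H3K9me3 covered 97 of 140 MMETn-like regions (69.3%) in at least 2 DMSO libraries, 85 of 174 MMERVK-like regions (48.9%), 4 of 8 IAP-like, 2 of 18 L1-like and 7 of the 41 without a match (17.1%). MED23 was present in both treated libraries in 156 MMERVK-like regions (89.7%), 109 MMETn-like (77.9%), 4 IAP-like, 6 L1-like (33.3%) and 18 without a match (43.9%). MMETn-like regions thus led in H3K9me3 and MMERVK-like regions in MED23. Median lengths were 1838.5 bases for MMERVK-like, 1607 for MMETn-like, 1637.5 for IAP-like and 759 for L1-like regions, and 906 for those without a match. An overlap of 1 base counted, so longer regions are more easily covered, and the part of length in these shares was not tested. The median H3K27ac after dTAG-13, a fold over background, was 6.63 for MMERVK, 6.60 for MMETn, 5.80 for L1, 5.68 for IAP and 5.41 for regions without a match. Of the 41 regions without a match, 7 had a gene start within 1 kb, and 1 lacked a DMSO H3K27ac peak.

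**Figure D3:**
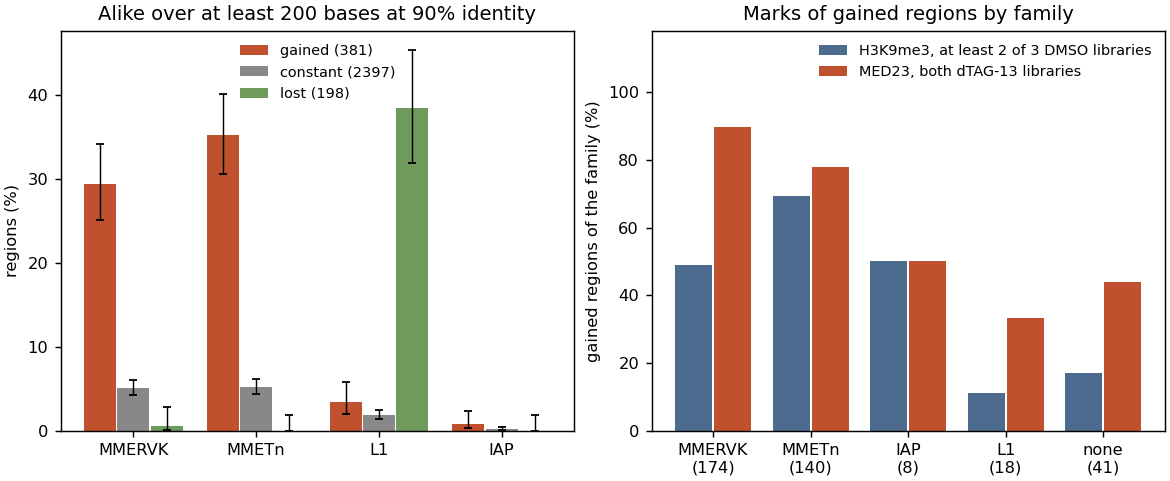
Left, share of gained, constant and lost regions (y axis, percent) alike to each element family over at least 200 bases at 90% identity, with 95% Wilson intervals that cover counting error only. Right, share of the gained regions of each family (y axis, percent) covered by H3K9me3 in at least 2 of 3 DMSO libraries (blue) and by MED23 in both dTAG-13 libraries (orange), with 69.3% of MMETn-like regions marked by H3K9me3 and 89.7% of MMERVK-like regions by MED23.

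By position, 138 gained regions (36.2%, 95% Wilson interval 31.6 to 41.2) lay within 1 kb of a listed full-length MMERVK or MMETn copy, 87 of them near MMETn and 51 near MMERVK. The same held for 68 constant regions (2.84%) and for no lost region. Seen from the elements, 103 of 445 MMETn copies (23.1%) had a gained region within 1 kb, as had 34 of 196 MMERVK9C copies (17.3%) and 25 of 175 MMERVK9E copies (14.3%). None of 349 MMERVK10C and 60 MMERVK10D3 copies had one. Copies with a gained region were longer, with a median of 4150 against 846 bases for MMETn, 4870 against 2594 for MMERVK9C and 5166 against 1781 for MMERVK9E. They were also more often covered by H3K9me3 in DMSO cells, at 75.7% against 43.0% for MMETn, 76.5% against 31.5% for MMERVK9C and 40.0% against 18.0% for MMERVK9E. Length and H3K9me3 differed together, and the part of either in where gained regions lay was not tested.

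In listed copies of at least 4000 bases the acetylation summit most often sat near the 3′ end. Among 90 gained regions in such elements, 60 had their summit within 1000 bases of the 3′ end, 1 within 1000 bases of the 5′ end and 29 elsewhere. Regions near shorter elements are not in these numbers. Their summits could lie before the listed 5′ end, as at R049 and R196, or inside the element, as at R010. The highest summit inside the element was then read for each of the 90 regions. An element with more than 1 gained region, such as that of R026 and R027, was counted once for each. H3K27ac summits lay in the last 1000 bases in 64, 54 and 66 cases in the 3 treated libraries and in the first 1000 in 4, 4 and 0. MED23 summits after treatment lay in the last 1000 bases in 72 and 74 cases and in the first 1000 in 3 and 0. The H3K9me3 lists give no summit, so midpoints of the highest peaks in the DMSO libraries were used, which are not comparable with summits. They lay in the last 1000 bases in 48, 32 and 40 cases and in the first 1000 in 24, 20 and 16. H3K27ac and MED23 thus shared the 3′ side of these listed elements. The paper required a long terminal repeat on each side of the inner part and named each element after that inner part. Whether the listed coordinates include these repeats was not settled, so it is not known if the summits lie in the 3′ repeat or before it. The uniqueness of reads along the elements was not tested.

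**Figure D4:**
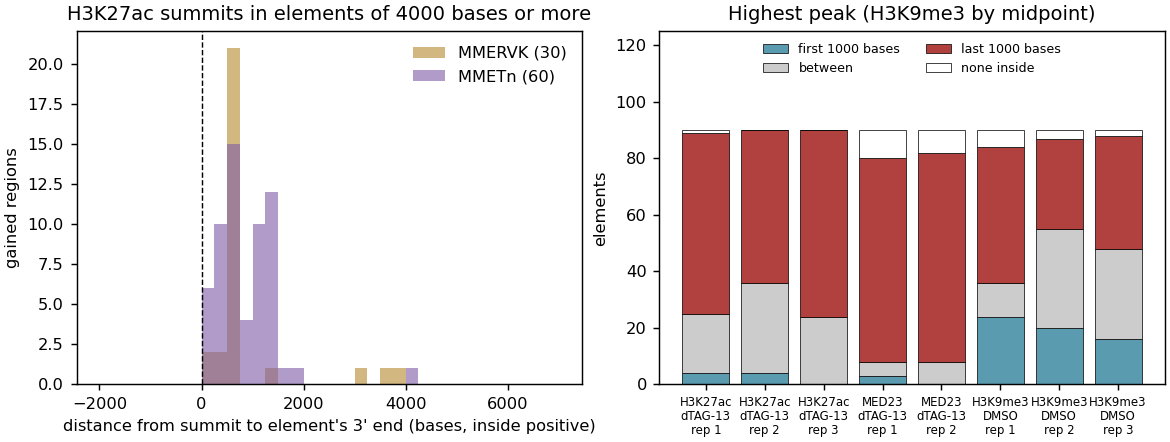
Left, number of gained regions (y axis) by the distance in bases from the H3K27ac summit to the 3′ end of the MMERVK or MMETn element (x axis, positive inside the element), for elements of at least 4000 bases. Right, elements of the 90 gained regions (y axis), an element with several gained regions being counted once for each. They are split by whether the highest peak had its summit, or for H3K9me3 its midpoint, in the first 1000 bases, the last 1000 bases, between them, or outside, for each library. The last 1000 bases held 54 to 74 for H3K27ac and MED23 and 32 to 48 for H3K9me3.

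The 8 short motifs were searched on both strands of the 300-base summit windows. The CCAAT box, bound by the trimeric factor NF-Y, was found in 177 gained windows (46.5%), against 25.2% of constant and 18.7% of lost windows and 37.4% of 32851 RefSeq promoters of the same length (GRCm38 table). By family it occurred in 83 of 140 MMETn-like windows (59.3%) and 43.7% of MMERVK-like windows. The GATA motif AGATAA was found in 19.9% of gained and 10.4% of constant windows, and in 30.0% of MMETn-like ones. The TATA box TATAAA was found in 15.2% against 7.30%, with 22.4% of MMERVK-like windows, and the AP-1 motif TGACTCA in 6.82% against 3.67%. Motifs known from CpG-rich promoters were less frequent, with the GC box in 2.89% of gained and 32.6% of constant windows and the ETS motif CCGGAA in 4.72% and 17.1%. The octamer ATGCAAAT, bound by POU factors such as OCT4, was found in 0.262% of gained and 1.50% of constant windows, and the CRE motif TGACGTCA in none of 381, a share whose interval reaches 0.998%, and in 0.793% of constant windows. Alike copies share their letters, so windows of 1 family are not independent, and a match is not a bound site. The sets also differ in base composition, with a median GC content of 42.4% in gained, 48.7% in constant and 57.5% in lost regions. The share of windows expected to hold each motif from base composition alone was not computed, so these contrasts do not show enrichment beyond it.

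For transcription, each gained region was linked to the gene with the nearest start within 50 kb. That gave 278 genes for 316 regions, while 65 regions had none. Of the 278, 98 are protein-coding and 71 are processed pseudogenes, and the median distance was 11062 bases. Only 82 passed the minimum of 1 TPM in 3 RNA-seq libraries of the time course, 51 passed 0.5 FPKM in TT-SLAM-seq, and 70 passed in the shREPEATS line. A gene silent in DMSO cells could pass only by rising, so counts are also given for genes whose DMSO mean reached the minimum, a limit added after the data were seen. A gene was called at an adjusted p below 0.05 (limma, Benjamini-Hochberg over all genes tested) and more than 2-fold.

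In these bulk libraries, more cells expressing a gene and more RNA per cell cannot be told apart. At 2 and 6 h no linked gene was called in either assay. Of all genes tested, 0.127% were called higher at 2 h and 0.374% at 6 h in TT-SLAM-seq, and 0.251% and 0.776% in RNA-seq, where 0.19% were called lower at 6 h. At an unadjusted p below 0.05 the limma fits gave 11 and 16 of 51 linked genes in TT-SLAM-seq, against 21.2% and 26.5% of all genes, and 17 and 34 of 82 in RNA-seq, against 28.7% and 43.3% of all genes. At 24 h, 7 of the 51 linked genes (13.7%) were called higher in TT-SLAM-seq and none lower, against 2.49% higher and 0.906% lower of all genes tested. With a DMSO mean at the minimum it was 2 of 33, against 1.5% of all genes. In RNA-seq at 24 h, 31 of 82 linked genes (37.8%) were called higher and none lower, against 10.1% and 2.01% of all genes tested, and 20 of 65 with the DMSO minimum, against 7.84%. The median log2 fold change of the linked genes was 0.63, beside 0.13 for all genes, and in TT-SLAM-seq 0.43 beside 0.21. At 96 h 22 of 82 (26.8%) were called higher and 4 (4.88%) lower, against 20.3% and 12.4% of all genes, and with the DMSO minimum 14 and 4 of 65, against 17.5% and 13.7%. The share of linked genes called higher at 96 h thus lay near that of all genes. With each library centred on its median, which takes out the shift of all genes, the calls were 1 higher at 24 h in TT-SLAM-seq (1.06% of all genes), 21 higher and 2 lower at 24 h in RNA-seq (4.94% and 5.13% of all genes), and 15 higher and 11 lower at 96 h (15.1% and 18.8% of all genes). The 24 and 96 h comparisons share their DMSO libraries. Replicate 1 at 24 h had the lowest relative depth of the RNA-seq libraries, 0.352 on a scale that ran to 1.49, and with any 1 library left out the 24 h count stayed between 28 and 31.

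The 31 genes called at 24 h were spread over families and distances. Called genes were 12 of 32 tested genes linked to MMERVK-like regions, 7 of 20 to MMETn-like, 9 of 21 to regions without a match, 2 of 2 to L1-like and 1 of 7 to IAP-like regions. By distance from region to start they were 3 of 9 within 1 kb, 14 of 36 between 1 and 10 kb and 14 of 37 beyond. Protein-coding genes made up 16 of the 31. A linked gene's own exons overlapped a gained region for 4 of the 31, and among genes without such an overlap 27 of 71 were called.

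Cyp2b23, a cytochrome P450 gene of the drug-metabolising 2b cluster, changed most. The gene (ENSMUSG00000040650) lies at chr7:26665227-26686437 of GRCm38. Its transcript levels were 2.51, 2.76 and 2.58 TPM with DMSO and 30.5, 36.9 and 36.7 TPM after 24 h of dTAG-13. The groups did not overlap, and the change on the log2(TPM + 0.5) scale was 3.49 ± 0.11 (SE, limma adjusted p = 1.6e-11). Its start lay 7056 bases from R317, an MMERVK9E-like region with H3K27ac folds of 0, 2.6 and 0 with DMSO and 4.85, 6.92 and 7.32 with dTAG-13. In TT-SLAM-seq Cyp2b23 was at 0.0453, 0.0374 and 0.0413 FPKM with DMSO and at 0.589, 0.944 and 0.706 at 24 h, a change of 1.19 ± 0.13 (SE). It reached the TT-SLAM-seq minimum only in the 24 h group, so no p is given, and the change was 0.95 after median centring and 0.74 with a pseudocount of 1, below the call. At 96 h it was at 8.93, 9.85 and 12.0 TPM, between the DMSO and the 24 h values.

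Mmp12 (ENSMUSG00000049723, chr9:7344381-7369499), whose start lay 16665 bases from R356, was listed at 0.0302, 0 and 0 TPM with DMSO and at 3.31, 3.1 and 2.56 TPM at 24 h. All treated libraries were above all DMSO libraries, with a change of 2.77 ± 0.15 (SE). No DMSO library of Mmp12 reached the minimum, so the gene was tested only because it was high after treatment, and no p is given. At 96 h Mmp12 was at 1.21, 1.85 and 2.06 TPM. Nat8f2, a gene of the N-acetyltransferase 8 family, began 361 bases from the MMETn-like region R299. Its levels were 1.41, 1.28 and 1.46 TPM with DMSO and 6.59, 8.30 and 8.30 TPM at 24 h, a change of 2.12 ± 0.12 (SE, limma adjusted p = 3.9e-09). Nat8f2 was still at 8.17, 9.29 and 9.03 TPM at 96 h.

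Among metabolic genes, Pdk4, a kinase that switches off pyruvate dehydrogenase, lay 25057 bases from the MMERVK-like R288. It was at 1.80, 2.36 and 1.69 TPM with DMSO and at 10.3, 9.79 and 7.82 TPM at 24 h (log2 change 2.00 ± 0.15, SE, limma adjusted p = 3.7e-08). In TT-SLAM-seq Pdk4 went from 0.286, 0.318 and 0.237 to 1.29, 1.71 and 1.51 FPKM, a change of 1.36 ± 0.11 (SE) that was 0.97 with a pseudocount of 1. No DMSO library of Pdk4 reached the minimum there, so no p is given. Asb13, a substrate receptor of a ubiquitin ligase, lay 5074 bases from R092, a region without a match to any listed element. It was at 6.42, 6.00 and 6.57 TPM with DMSO and at 25.1, 31.2 and 29.2 TPM at 24 h, a change of 2.08 ± 0.08 (SE, limma adjusted p = 1.0e-10). Asb13 stood at 32.7, 32.3 and 29.3 TPM at 96 h, so its level was kept.

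The remaining genes of largest change at 24 h were noncoding or pseudogenes. The lincRNA Gm19792 overlapped the MMETn-like R114 with an exon and went from 0.129, 0.487 and 0.229 to 5.76, 5.52 and 6.27 TPM (log2 change 3.05). The pseudogene Gm21321, linked to 4 gained regions of the chromosome 10 cluster, went from 1.13, 1.25 and 0.567 to 8.94, 8.08 and 8.81 TPM (2.65) and reached 11.9, 11.8 and 13.2 TPM at 96 h. Gm4425 overlapped a gained region with an exon and changed by 2.22, Gm20472 by 2.17, Gm15136 by 2.18 and the rRNA-like Gm23084 by 2.54. Of these 6 genes only Gm4425 reached the minimum in all 3 DMSO libraries, and Gm19792, Gm15136 and Gm23084 did so in none. Copies with alike sequence share reads, so the levels of these pseudogenes are uncertain. A pair of further linked genes was among the 5 of largest change in TT-SLAM-seq at 24 h. Pigyl, whose product belongs to the pathway of GPI anchor synthesis, went from 1.45, 1.84 and 1.28 to 4.01, 3.25 and 5.71 FPKM (1.23 ± 0.23, SE, limma adjusted p = 0.00265), and after median centring the change was 0.99, below the call. The lincRNA G930009F23Rik, which overlaps a gained region, went from 0.326, 0.353 and 0.218 to 1.33, 1.24 and 1.33 FPKM (1.17 ± 0.07, SE), with 0.93 after centring, below the call. No DMSO library of it reached the minimum.

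Few genes next to the strongest regions had measurable transcripts. Of the genes linked to the 10 regions of highest H3K27ac only Gm12312, Gm11810, Rps2-ps5 and Mmp12 passed the RNA-seq minimum, and Mmp12 alone was called. Gm11810 was at 1.69, 1.60 and 1.86 TPM with DMSO and at 3.85, 2.7 and 2.54 TPM at 24 h, a change of 0.66 ± 0.23 (SE, limma adjusted p = 0.0226) below the 2-fold limit. Gm12312 changed by -0.09 and Rps2-ps5 by 0.09, with limma adjusted p-values of 0.646 and 0.699. Gckr, whose intron holds R278, stayed under the minimum, at 0.0925, 0.11 and 0.0581 TPM with DMSO and 0.219, 1.22 and 0.848 TPM at 24 h. Vmn1r-ps145 was listed at 0 in every library of the 0, 2, 6 and 24 h groups.

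The shREPEATS line gave an independent set of libraries for the linked genes. With dTAG-13 against DMSO 15 of 70 linked genes (21.4%) were called higher and none lower, against 2.38% and 1.44% of all genes tested, and 9 of 57 with the DMSO minimum, against 1.71%. The median log2 change of the linked genes was 0.52, beside 0.14 for all genes. Of the 31 genes called at 24 h in the time course 26 were tested here, all 26 had a change above 0, and 14 were called higher, with a median of 1.03. Cyp2b23 was at 0.955, 0.906 and 0.414 TPM with DMSO and at 18.6, 16.7 and 18.2 TPM with dTAG-13 (3.89 ± 0.16, SE). It reached the minimum of this line only with dTAG-13 alone, so no p is given for its comparisons here. Nat8f2 went from 0.605, 1.13 and 0.809 to 17.5, 16.5 and 17.6 TPM (3.73 ± 0.14, SE, limma adjusted p = 6.4e-09) and the change was larger than in the time course by 1.61 ± 0.19 (limma interaction, adjusted p = 2.6e-05).

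When Dox was added to dTAG-13, 12 of 70 linked genes (17.1%) were called lower than with dTAG-13 alone and none higher, against 1.96% and 1.49% of all genes tested, and 6 of 57 with the DMSO minimum, against 1.42%. Cyp2b23 was at 0.730, 0.844 and 0.943 TPM, a change of -3.78 ± 0.16 from dTAG-13 alone (SE). Mmp12 was listed at 0 in all 3 libraries with Dox, from 3.68, 2.92 and 3.71 TPM with dTAG-13 alone. Nat8f2 was at 1.47, 1.01 and 1.08 TPM, a change of -3.40 ± 0.14 (SE, limma adjusted p = 1.4e-08). For these 3 genes the levels with dTAG-13 plus Dox were near those with DMSO. After median centring the calls were 10 higher with dTAG-13 (1.52% of all genes) and 9 lower with Dox (1.56%). Both comparisons of this line share the libraries with dTAG-13 alone, so a fall in one and a rise in the other are not separate evidence. The Trim28 transcript itself was at 252, 283 and 276 TPM with DMSO, at 213, 203 and 203 with dTAG-13 and at 285, 284 and 284 with dTAG-13 plus Dox, and the part of this in the result was not tested.

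**Figure D5:**
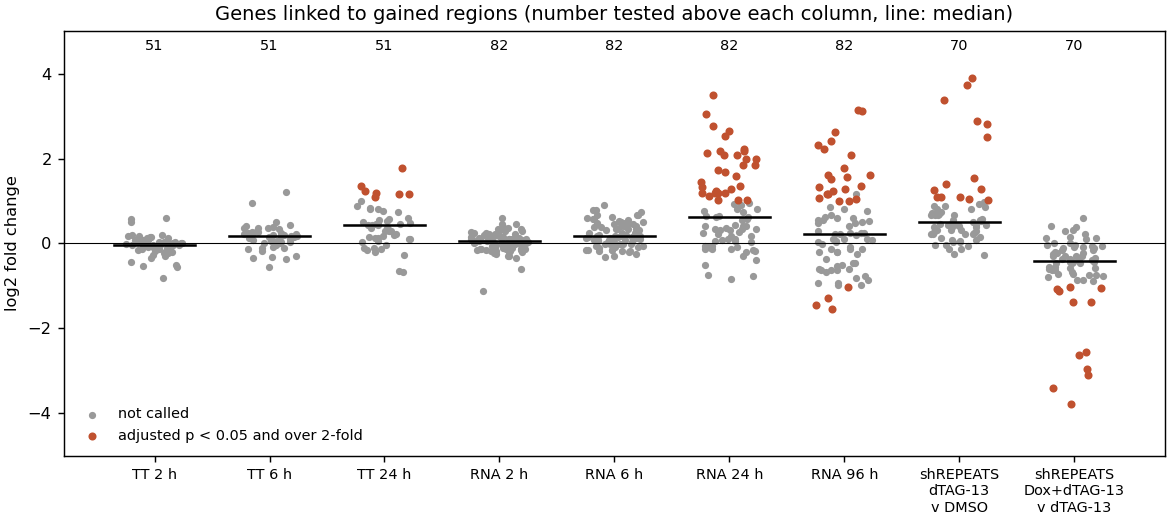
Log2 fold change (y axis) of the linked genes tested in each comparison (x axis), 1 point per gene, with called genes in orange, the median as a line and the number tested above. Called genes appear only above 0 at 24 h of dTAG-13 in both lines, on both sides at 96 h, and only below 0 when Dox was added.

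A test of the difference between the 24 h effects of the shREPEATS line and the time course covered 81 linked genes. By the call rule 3 had a higher and 8 a lower effect in the shREPEATS line, against 2.11% and 6.61% of all genes tested. At an adjusted p below 0.05 of any size the difference passed in 41 of the 81, against 51.4% of all genes, a share near the background. The experiments also differed in library kind, poly(A) against total RNA, and in feeder fibroblast markers. With DMSO these summed to between 19.6 and 20.4 TPM in the time course and between 102 and 110 TPM in the shREPEATS line. The markers did not all differ in the same direction. Col1a1, Col1a2, Col3a1 and Postn were higher in the shREPEATS line. Thy1 was lower there, at 3.32, 3.49 and 3.66 TPM against 7.67, 7.96 and 7.93 TPM. Lum and Dcn were below 1 TPM in both. Neither library kind nor marker levels can be told apart from the line.

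Genes of the acetylation machinery did not pass the call in any comparison. None of 12 genes of the H3K27 acetylation machinery, which include the acetyltransferases Ep300 and Crebbp and the deacetylases Hdac1 to Hdac3, was called, with a median log2 change of 0.01 at 24 h in RNA-seq. None of the 3 NF-Y subunit genes was called either, with a median of 0.18. Of 13 genes of TRIM28-dependent silencing, among them Setdb1, none was called up to 24 h and 4 were called lower at 96 h, against 12.4% of all genes. Trim28 transcripts were at 622, 622 and 626 TPM with DMSO and at 369, 365 and 382 TPM at 24 h (-0.74 ± 0.05, SE, limma adjusted p = 2.7e-08), while dTAG-13 acts on the protein, which these data do not measure. Cthrc1, a gene the study followed in detail, was not linked, since it was not the nearest gene start of any gained region. This does not mean that no gained region lies near it. The paper reports ERVs close to Cthrc1 whose deletion weakened its induction. Its transcript went from 16.6, 18.3 and 14.5 to 236, 247 and 239 TPM.

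Marker genes were read for the cells' identity. Of 6 stem cell genes, Pou5f1, Sox2, Zfp42 and Dppa5a had an H3K27ac peak at their start in all 3 DMSO libraries, Nanog had weak ones with folds of 2.62 to 3.13, and Esrrb had one only in DMSO replicate 2. No peak was found at any of the 17 markers of feeder fibroblasts, endoderm or the 2-cell-like state. At Pou5f1 the folds were 10.6, 9.42 and 12.2 with DMSO and 8.22, 7.91 and 0 with dTAG-13. In RNA-seq 2 of 6 stem cell markers were called lower at 24 h, against 2.01% of all genes, and all 6 at 96 h, against 12.4%. Their summed level went from between 3386 and 3718 TPM to between 2220 and 2543 TPM at 24 h and between 289 and 330 TPM at 96 h. Nanog alone went the other way at 24 h, from 135, 142 and 132 to 208, 198 and 191 TPM (log2 change 0.54, limma adjusted p = 3.6e-06). Feeder fibroblast markers summed to between 19.6 and 20.4 TPM with DMSO, 24.7 and 27.1 TPM at 24 h and 264 and 288 TPM at 96 h, with 1 and then 4 of 6 tested markers called higher, against 10.1% and 20.3% of all genes. Of 5 endoderm markers 3 were called higher at 96 h, against the same 20.3%, and none at 24 h. In the shREPEATS line 5 of 6 stem cell markers were called lower and 4 of 5 markers of the 2-cell-like state higher with dTAG-13, against 1.44% and 2.38% of all genes. With dTAG-13 plus Dox against dTAG-13 alone 5 stem cell markers were called higher and 4 2-cell-like markers lower, against 1.49% and 1.96%. The part of these shifts in the linked genes was not tested.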

How the data were processed

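Chromatin was profiled by ChIP-seq and RNA by TT-SLAM-seq and RNA-seq in mESCs. The authors called peaks in each library by itself and deposited, for each peak, its fold over background, a −log10 p and q and, in 14 of the 20 lists, the offset of the summit, which the H3K9me3 lists lack, so midpoints stood in for them. The submitters' processing notes name cutadapt 2.4, BWA, GATK 4.1.4.1, MACS2 and deepTools 3.4.3, without settings. Whether an input served as control, and whether reads with several best places were kept, is not given in the sources used here. Each fold is relative to its own library's background, and no scaling by the fly cells added to ChIP samples was applied here, so regions were ranked within a library. For TT-SLAM-seq the authors deposited FPKM of reads carrying T-to-C conversions, where a read over several genes counted for each, and the methods speak of technical replicates when tracks were merged. The deposited RNA-seq tables hold TPM, FPKM and gene coverage, made by the authors with STAR 2.7.5a and StringTie 2.0.6 from poly(A) RNA in the time course and from ribosome-depleted total RNA in the shREPEATS line. Read counts are unknown for TT-SLAM-seq. For RNA-seq, each gene's coverage was divided by its median over libraries. The median of this over genes, scaled to the median library, gave relative depths of 0.352 to 1.49, lowest for replicate 1 at 24 h.

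The deposited peaks were merged and overlapped by at least 1 base, with coordinates on GRCm38 (mm10). A share of regions was compared between treatments by a two-sided exact permutation test over libraries. Shares over regions carry 95% Wilson intervals that cover counting error only. Likeness was found with BLAST+ 2.17.0 (e-value 1e-10, at least 100 aligned bases, best score) against element copies and IAP long terminal repeats in the study's supplementary lists, used only for their positions. The IAP and L1 lists were held in part. Super-enhancers came from the same source. Linked genes were tested in limma 3.58.1 (R 4.3.3; lmFit, eBayes with trend) on log2(value + 0.5), for genes with at least 1 TPM or 0.5 FPKM in at least 3 libraries, with Benjamini-Hochberg adjustment over all genes tested. The study used a count model, which FPKM and TPM do not allow. Fold changes on this scale understate changes of low genes. On simulated data with known changes the fits were checked before use. Python 3.11.15 with pandas 2.3.3, scipy 1.17.1 and Biopython 1.88 did the rest.

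Named genes were those linked to the 10 regions of highest H3K27ac, the 10 linked genes of largest change among those called in RNA-seq at 24 h, the 5 of largest change in TT-SLAM-seq at 24 h, Cthrc1, Trim28, and the lists of markers, acetylation, silencing and NF-Y genes. The regions, lists and tests were chosen with earlier results of these data known. The Hi-C, input, single-cell, parental mESC and neural progenitor samples were not used here.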

Additional observations from a re-analysis of the deposited data

Results flagged for a closer look

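Of the named linked genes, 9 had a 24 h effect of dTAG-13 that differed between the shREPEATS line and the time course by the limma interaction (adjusted p below 0.05 over all genes tested). Nat8f2 alone had the larger effect in the shREPEATS line, by 1.61 ± 0.19 on the log2 scale (SE, limma adjusted p = 2.6e-05). The other 8 had the smaller effect there. The difference was -1.20 for Gm20472, -1.13 for Pdk4, -0.99 for G930009F23Rik, -0.94 for Gm4425, -0.53 for Asb13 and -0.32 for Pigyl. For these the limma adjusted p-values lay between 5.4e-04 and 0.00845. It was -1.65 for Gm15136 and -1.53 for Gm23084. Gm15136 and Gm23084 did not pass the expression minimum of the shREPEATS line by itself. They entered this test only because they were high in the time course at 24 h, so no p is given for them. Over all 81 linked genes tested for it, the difference passed in 41, against 51.4% of all genes, and 17 of the 41 had the larger effect in the shREPEATS line. The line, the library kind and the levels of feeder fibroblast markers, which did not all differ in the same direction, cannot be told apart. No group held 4 to 10 libraries, so no single library was tested as standing apart within a group.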

How the results depend on the processing

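The number of gained regions followed the limits of the rule. It was 129 from the 5000 and 1594 from the 20000 highest peaks of each dTAG-13 library, 160 where all 3 libraries had to hit, 88 without any DMSO peak, 946 against the 10000 highest DMSO peaks, and 192 to 453 when 1 library was left out (192 without dTAG-13 replicate 3, 206 without replicate 1). The share like a listed element was 84.3% at 200 aligned bases, 76.1% at 90% identity and 68.8% with both limits, the last setting added after seeing the data. In windows of 200 bases the CCAAT box was found in 36.0%, the TATA box in 10.2% and the GATA motif in 10.5% of gained windows.

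The coverage differences for H3K9me3 in gained regions ranged from -56.7 to -26.2 points and those for MED23 from 17.6 to 85 over the alternatives, which include 3 stricter sets of regions added after seeing the data. With 1 library left out the ranges were -45.2 to -40.5 and 67.6 to 70.7, and for gained minus constant regions -43.6 to -39.2 and 84.2 to 87.9. For RNAPII they were 1.18 to 2.49 and 4.37 to 5.10, and the gained minus constant difference was -0.338 with peak midpoints within 1 kb and 17.9 with all deposited peaks. The cause was not tested.

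Linked genes called higher in TT-SLAM-seq at 24 h numbered 7. They were 13 with a pseudocount of 0.1 and 2 with 1, 1 after median centring, 0 with a mean of at least 5, where 0 were left to test, 2 with the DMSO minimum, 18 with every gene starting within 50 kb, 12 with the nearest tested gene, and 4 to 8 with 1 library left out (4 without dTAG-13 replicate 3). At 6 h in RNA-seq the last-named links gave 2 and 1. In RNA-seq at 24 h, where 31 were called, a mean of at least 5 gave 13 of 45, the DMSO minimum 20, every gene 85 of 328, the nearest tested gene 49 of 149, regions hit by all 3 libraries 16, regions without a DMSO peak 6, the 5000 highest peaks 16, and 1 library left out 28 to 31. At 96 h, with 22, the first 4 of these settings gave 10, 14, 72 and 39. In the shREPEATS line, dTAG-13 against DMSO gave 15, and 8, 9, 45, 27, 7, 4 and 6 under the first 7 settings, 24 without a filter, and 10 to 15 with 1 library left out. Dox with dTAG-13 against dTAG-13 gave 12 lower, and 6, 6, 36, 22, 7, 5 and 7, and 22 without a filter. The difference between the lines was called for 11 genes in either direction, 7 with links of 20 kb, 37 with every gene and 21 with the nearest tested gene.

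Among named genes the direction turned for Gm12312 in the shREPEATS line, to -0.085 after centring, and for Rps2-ps5 in RNA-seq at 24 h, to -0.20 after centring. With 1 library left out at 24 h the change of Gm12312 ran from -0.19 to 0.047, above 0 without DMSO replicate 1, and that of Rps2-ps5 from -0.21 to 0.26, below 0 without dTAG-13 replicate 1. None of these had been called. After centring Cyp2b23, Gm21321, Gm23084, Pigyl and G930009F23Rik missed the call in TT-SLAM-seq, at 0.95, 0.92, 1.54, 0.99 and 0.93, and Pigyl in the shREPEATS line, at 0.86.

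Replicate numbers did not pair the TT-SLAM-seq and RNA-seq libraries, since same-numbered deviations correlated between -0.205 and 0.062, and the chromatin libraries were not checked for pairing. With the replicate block the mark differences kept their values by construction, at -43.0, -41.5, 69.2, 86.1, 1.84 and 4.74, with exact p-values of 0.25 for H3K9me3 and 0.5 otherwise, and the counts were 7, 31, 22, 15 and 12 as without it. No call of a named gene changed under the block.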

Other observations

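The 24 gained regions that kept H3K9me3 among the highest peaks of at least 2 treated libraries were 17 MMETn-like, 5 MMERVK-like, 1 L1-like and 1 without a match. The highest H3K9me3 folds of treated replicates 2 and 3 at gained regions lay in L1-like regions, at 9.01 and 13.7, where 8 and 3 of the 18 had a peak. In treated replicate 1 none of the 18 had one, and the highest fold, 8.39, lay in a region without a match. The median GC content of the L1-like regions was 52.3%, against 42.5% for MMERVK-like and 41.8% for MMETn-like regions. Of the 88 gained regions without any DMSO H3K27ac peak, 42 were MMETn-like, 38 MMERVK-like, 4 L1-like, 3 IAP-like and 1 had no match.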
